A study of Mus musculus with 16 samples.

Results

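The 10 genes described here, Clec4f, Timd4, Cd5l, Vsig4, Marco, Folr2, C1qa, C1qb, Csf1r and Cd163, are markers of Kupffer cells, the resident macrophages of the liver, or of macrophages more widely. They were taken as every probe set annotated with one of these symbols alone, which gave 15 of the 45101 probe sets on the arrays and 10 of the 18193 genes tested. C1qb and Csf1r had 3 probe sets each, Marco had 2 and the other 7 genes had 1. Each gene was read by its brightest probe set, that with the highest 16-array mean, and levels are log2 intensities after RMA (robust multi-array average), so that a difference of 1 is a 2-fold difference.

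RNA of 16 liver samples from male C3H/HeJ mice was hybridised, 1 sample per Affymetrix array: 7 Ctnnb1-mutated tumours with 3 non-tumour controls under phenobarbital (phenobarbital controls, numbered 4 to 6), and 3 Ha-ras-mutated tumours with 3 non-tumour controls without the drug (untreated controls, numbered 1 to 3). Ctnnb1 encodes beta-catenin, the effector of Wnt signalling, and Ha-ras is a growth signalling GTPase. The design text gives all of these mice 1 intraperitoneal dose of the liver carcinogen DEN (diethylnitrosamine, 10 or 90 µg/g) when 2 or 6 weeks old, 2 weeks without treatment and then 28 to 36 weeks with 0.05% phenobarbital, a tumour promoter, in the diet or with a diet free of it. The labels of the samples instead give 27 weeks of phenobarbital in drinking water or of plain water, and the protocol texts give other ages and a shorter course. Mutation and phenobarbital went together in the tumours and cannot be told apart when the tumour types are compared. The labels name no animal for a sample and do not say whether control tissue came from tumour-bearing livers, so p-values measure the spread between these samples only. C3H/HeJ mice carry a defective Tlr4, the receptor through which macrophages sense bacterial lipopolysaccharide.

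Kupffer cells line the liver sinusoids, where they take up bacteria, dying cells and haemoglobin from portal blood. They settle in the liver before birth and maintain themselves there with signals through the CSF1 receptor, and the transcription factor PU.1, encoded by Spi1, is required for the macrophage lineage. In mice, Clec4f and Timd4 mark resident Kupffer cells, whereas C1q genes and Csf1r are also expressed by macrophages that arise from blood monocytes. Tumours of the liver can hold both kinds of cell. In RNA of whole tissue, fewer cells of a type and less RNA per cell cannot be told apart.

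The promoter stretches below are those of Clec4f, Timd4, Vsig4 and Cd163, which were called lower in the Ha-ras tumours. Cd5l and Folr2, also called lower there, are not printed. The stretch of C1qb, which did not pass the test in either tumour type, is set beside them. All are the 250 bases before the annotated start in RefSeq on GRCm38.p6, written in the direction of the gene, with capitals for GAGGAA or GGAAGT on either strand. These are 2 overlapping 6-letter parts of the PU.1 consensus. They lie at chr6:83656117-83656366 (minus strand) for Clec4f, chr11:46810549-46810798 (plus strand) for Timd4, chrX:96293439-96293688 (minus strand) for Vsig4, chr6:124304401-124304650 (plus strand) for Cd163 and chr4:136886201-136886450 (minus strand) for C1qb.
Clec4f: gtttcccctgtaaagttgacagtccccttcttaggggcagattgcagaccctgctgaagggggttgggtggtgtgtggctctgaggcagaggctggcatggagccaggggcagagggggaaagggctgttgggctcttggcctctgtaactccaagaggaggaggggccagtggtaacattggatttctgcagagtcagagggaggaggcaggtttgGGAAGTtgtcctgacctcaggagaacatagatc
Timd4: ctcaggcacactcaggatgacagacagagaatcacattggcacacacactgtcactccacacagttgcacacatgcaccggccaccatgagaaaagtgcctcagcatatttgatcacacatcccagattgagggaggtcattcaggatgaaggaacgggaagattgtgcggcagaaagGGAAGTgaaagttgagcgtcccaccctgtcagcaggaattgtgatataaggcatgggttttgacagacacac
Vsig4: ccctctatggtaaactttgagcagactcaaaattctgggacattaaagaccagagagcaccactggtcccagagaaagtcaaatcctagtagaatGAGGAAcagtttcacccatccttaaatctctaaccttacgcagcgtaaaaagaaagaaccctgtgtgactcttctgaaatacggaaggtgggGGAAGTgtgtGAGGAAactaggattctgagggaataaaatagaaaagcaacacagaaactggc
Cd163: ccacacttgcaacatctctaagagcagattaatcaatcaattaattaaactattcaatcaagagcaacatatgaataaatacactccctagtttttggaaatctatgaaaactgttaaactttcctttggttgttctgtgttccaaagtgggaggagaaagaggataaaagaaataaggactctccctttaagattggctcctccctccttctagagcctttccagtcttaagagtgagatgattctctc
C1qb: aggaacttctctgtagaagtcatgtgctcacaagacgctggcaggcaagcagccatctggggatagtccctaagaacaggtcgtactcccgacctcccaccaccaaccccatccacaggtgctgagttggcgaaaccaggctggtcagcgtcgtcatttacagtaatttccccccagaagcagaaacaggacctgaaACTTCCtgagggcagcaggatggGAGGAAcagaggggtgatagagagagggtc

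A promoter entry was matched for 8 of the 10 genes, all but C1qa and Csf1r. GAGGAA was present in 4 of the 8 (C1qb, Cd5l, Marco and Vsig4) and in 23.3% of all 32851 promoter stretches of this length. GGAAGT was present in 5 of the 8 (C1qb, Clec4f, Folr2, Timd4 and Vsig4) and in 19.7% of all stretches. TGCTGA, a half-site bound by MAF factors, was present in 5 of the 8 (C1qb, Cd5l, Clec4f, Folr2 and Timd4) and in 16.1% of all stretches. The Cd163 stretch held none of these letter strings. These motifs were chosen after the expression values were known, and a match is a description of the letters.

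The arrays were close in overall level, with medians of 5.03 to 5.10 over all probe sets. The Gapdh control probe sets, read as the 3-prime minus the 5-prime signal, gave a gap of 2.70 log2 units on the array of phenobarbital control 6, against -0.15 to 0.32 on the other arrays. That array is a control of the Ctnnb1 comparison, and values without it are given where a call or a direction changes. Timd4, Marco, Folr2 and Cd163 had means below that of the median gene (6.21), where part of a signal may be background. Genes that mark hepatocytes averaged 14.2 to 14.4 in the Ctnnb1 tumours, 14.0 to 14.4 in the phenobarbital controls, 14.6 in each Ha-ras tumour and 14.3 to 14.4 in the untreated controls, so every sample carried a strong signal of liver parenchyma.

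**Figure D1:**
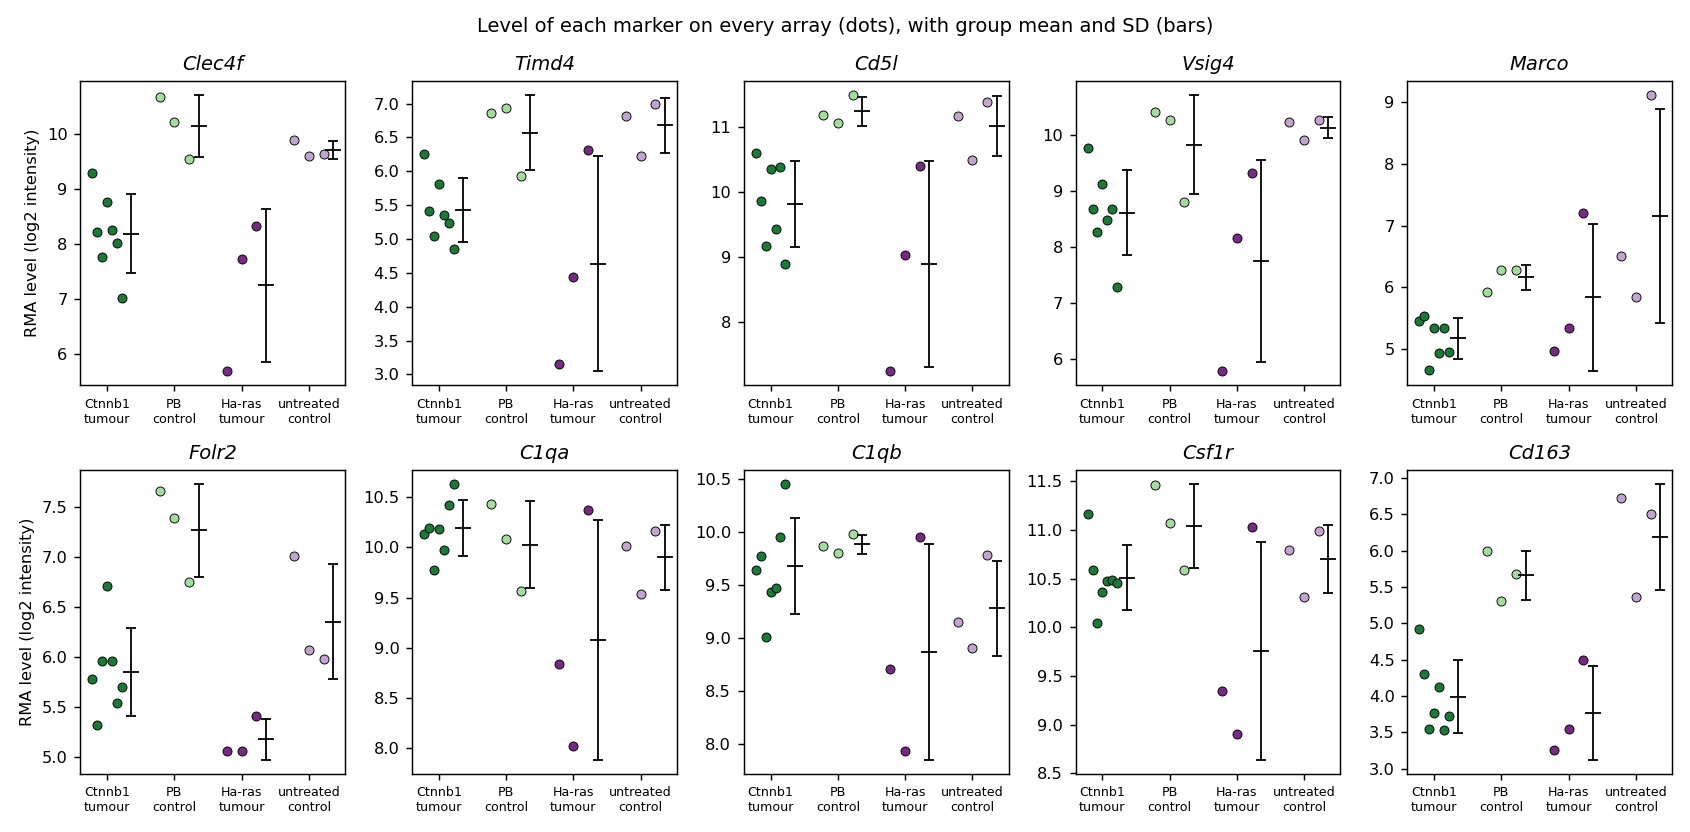
Level of each of the 10 markers (y axis, RMA log2 intensity) on every array (dots), by group, with the group mean and SD as bars. Clec4f, Cd5l, Folr2 and Cd163 lie lower in both tumour types than in the controls of the same treatment, without overlap. Timd4, C1qa, C1qb and Csf1r overlap with those controls in both tumour types.

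In the Ctnnb1 tumours, 3 of the 10 markers fell against the phenobarbital controls: Clec4f by 3.87-fold, Cd163 by 3.18-fold and Folr2 by 2.67-fold. The other 7 did not pass the test at an adjusted p of 0.05 over all genes, with log2 differences from -1.43 for Cd5l to 0.16 for C1qa. As background, 12% of all genes were called in this comparison, and 5.97% of all genes were called lower. The median log2 difference of the 10 markers was -1.18, against -0.03 over all genes, and 9 of the 10 were below 0. For 5 of the 10 (Clec4f, Cd5l, Marco, Folr2 and Cd163), every tumour lay below every control, which held for 6.64% of all genes.

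In the Ha-ras tumours, 6 of the 10 markers fell against the untreated controls: Clec4f by 5.48-fold, Cd163 by 5.38-fold, Vsig4 by 5.21-fold, Cd5l by 4.35-fold, Timd4 by 4.11-fold and Folr2 by 2.27-fold. Marco, C1qa, C1qb and Csf1r did not pass, with log2 differences of -1.31, -0.83, -0.41 and -0.94. As background, 13.5% of all genes were called here, and 6.33% of all genes were called lower. The median log2 difference of the markers was -1.68, against -0.04 over all genes, and all 10 were below 0. Every tumour lay below every control for 5 of the 10 (Clec4f, Cd5l, Vsig4, Folr2 and Cd163), which held for 18.5% of all genes.

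**Figure D2:**
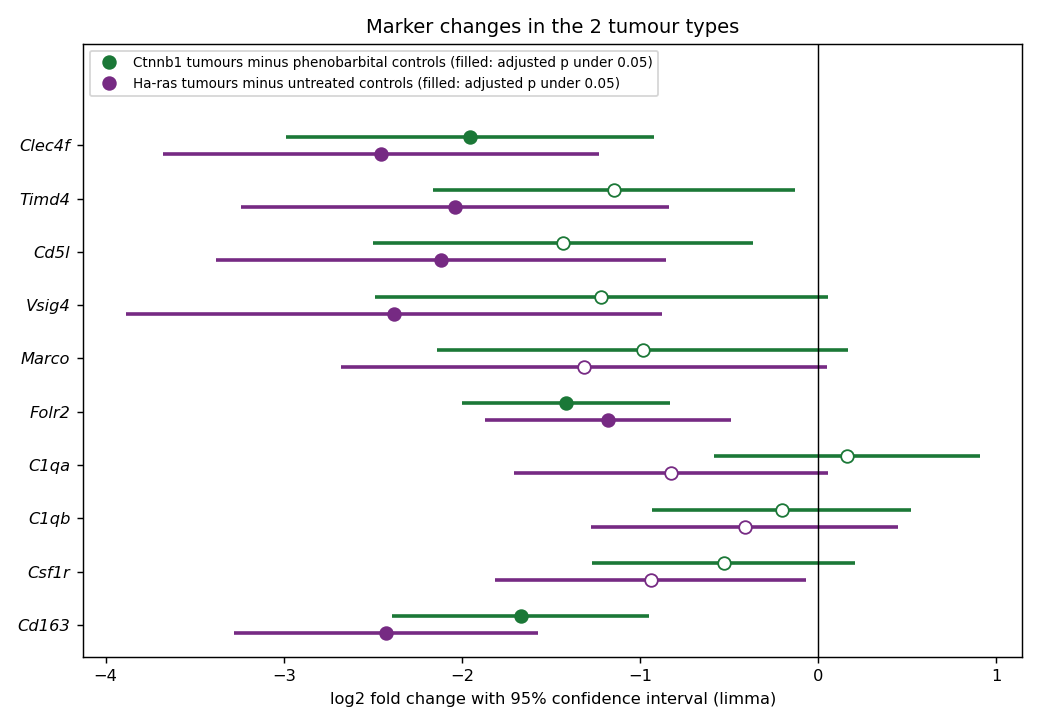
Log2 fold change of each marker (x axis) with its 95% confidence interval from limma, for the Ctnnb1 tumours minus phenobarbital controls (green) and the Ha-ras tumours minus untreated controls (purple). Filled points passed an adjusted p of 0.05: Clec4f, Folr2 and Cd163 in both comparisons, and Timd4, Cd5l and Vsig4 in the Ha-ras tumours.

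Clec4f encodes a C-type lectin of Kupffer cells that binds glycans. Its log2 level in the Ctnnb1 tumours was 7.02 at the lowest, 8.22 at the median and 9.28 at the highest, against 10.67, 10.22 and 9.54 in phenobarbital controls 4, 5 and 6. Every tumour was below every control, with tumour 7 the lowest and tumour 1 closest to the controls. The log2 difference was -1.95 ± 0.49 (SE, n = 7 and 3, limma with Benjamini-Hochberg adjustment, adjusted p = 0.0168). Without phenobarbital control 4 it was -1.69 and no longer passed (adjusted p = 0.0734). In Ha-ras tumours 1, 2 and 3 the level was 5.68, 7.73 and 8.33, against 9.89, 9.59 and 9.63 in untreated controls 1, 2 and 3. The controls lay within a narrow range and all 3 tumours below it, tumour 1 far below the other two. The log2 difference was -2.46 ± 0.58 (SE, n = 3 and 3, limma, adjusted p = 0.00898), and it passed without any single array.

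Timd4 encodes a receptor for phosphatidylserine on dying cells. Its level in the Ctnnb1 tumours was 4.86 at the lowest, 5.35 at the median and 6.25 at the highest, against 6.85, 6.93 and 5.93 in the phenobarbital controls. Tumour 1 lay above control 6, so the groups overlapped. The log2 difference of -1.15 ± 0.48 did not pass (SE, n = 7 and 3, limma, adjusted p = 0.131). In the Ha-ras tumours Timd4 was at 3.16, 4.44 and 6.32, against 6.82, 6.22 and 6.99 in the untreated controls. Tumour 3 was within the range of the controls and the other two were below it. Timd4 thus differed by -2.04 ± 0.57 log2 units (SE, n = 3 and 3, limma, adjusted p = 0.0241).

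Vsig4 encodes a complement receptor that binds C3b and iC3b and captures bacteria from blood. The Ctnnb1 tumours had a lowest level of 7.28, a median of 8.67 and a highest of 9.77, against 10.40, 10.27 and 8.80 in the phenobarbital controls. Controls 4 and 5 were above every tumour, while control 6, the array with the large Gapdh gap, was within the tumours' range. The log2 difference was -1.22 ± 0.60 (SE, n = 7 and 3, limma, adjusted p = 0.206) and did not pass without control 6 either. Ha-ras tumours 1, 2 and 3 had 5.77, 8.15 and 9.31, against 10.22, 9.90 and 10.26 in the untreated controls. All 3 tumours were below the controls, tumour 1 again the lowest. The log2 difference of -2.38 ± 0.71 passed (SE, n = 3 and 3, limma, adjusted p = 0.0349).

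Cd5l encodes a secreted scavenger receptor protein of tissue macrophages, also called AIM. Its level in the Ctnnb1 tumours ran from 8.89 over a median of 9.85 up to 10.59, against 11.17, 11.05 and 11.49 in the phenobarbital controls. The groups did not overlap, but the log2 difference of -1.43 ± 0.50 did not pass (SE, n = 7 and 3, limma, adjusted p = 0.0756). The Ha-ras tumours had 7.24, 9.03 and 10.39, against 11.16, 10.49 and 11.38 in the untreated controls. Tumour 3 was just below the lowest control. Cd5l differed by -2.12 ± 0.59 log2 units (SE, n = 3 and 3, limma, adjusted p = 0.0258).

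In the Ha-ras comparison the calls of Timd4, Cd5l, Vsig4 and Folr2 depended on single arrays. Without Ha-ras tumour 1 the log2 differences were -1.30 for Timd4, -1.30 for Cd5l, -1.40 for Vsig4 and -1.12 for Folr2, and none of them passed (adjusted p = 0.121, 0.123, 0.167 and 0.0789). Timd4 and Cd5l also lost their calls without Ha-ras tumour 2 or untreated control 1 or 3 (adjusted p from 0.059 to 0.0953), Vsig4 without Ha-ras tumour 2 or any 1 untreated control (0.0592 to 0.0975) and Folr2 without Ha-ras tumour 2 or untreated control 1 (0.0778 and 0.126). Without Ha-ras tumour 3, which was the tumour nearest to the controls, 8 of the 10 markers were called. In a fit of only the 6 arrays compared, Timd4, Cd5l and Vsig4 did not pass (limma, adjusted p = 0.0989, 0.0897 and 0.0839).

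Cd163 encodes the receptor that clears haemoglobin bound to haptoglobin. It was at 3.53 at the lowest, 3.77 at the median and 4.93 at the highest in the Ctnnb1 tumours, against 5.99, 5.31 and 5.67 in the phenobarbital controls. All 7 tumours were below the 3 controls, with tumour 1 the highest tumour. Cd163 differed by -1.67 ± 0.34 log2 units (SE, n = 7 and 3, limma, adjusted p = 0.00504). The Ha-ras tumours had 3.26, 3.54 and 4.49, against 6.72, 5.36 and 6.50 in the untreated controls. The groups were clearly apart, and the log2 difference of -2.43 ± 0.40 had the smallest adjusted p among the markers (SE, n = 3 and 3, limma, adjusted p = 0.000679). Both Cd163 calls held without any single array.

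Folr2 encodes folate receptor beta, found on tissue macrophages. It was at 5.32 at the lowest, 5.78 at the median and 6.71 at the highest in the Ctnnb1 tumours, against 7.66, 7.39 and 6.75 in the phenobarbital controls. Tumour 4 nearly reached control 6, and the other tumours were clearly lower. The log2 difference was -1.42 ± 0.28 (SE, n = 7 and 3, limma, adjusted p = 0.00385) and passed without any single array. The Ha-ras tumours had 5.06, 5.05 and 5.41, against 7.01, 6.07 and 5.98 in the untreated controls. The 3 tumours were close together and below the controls, of which control 1 was the highest. Folr2 differed by -1.18 ± 0.33 log2 units (SE, n = 3 and 3, limma, adjusted p = 0.0236).

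Marco encodes a class A scavenger receptor that binds bacteria. It was at 4.66 at the lowest, 5.34 at the median and 5.55 at the highest in the Ctnnb1 tumours, against 5.93, 6.27 and 6.28 in the phenobarbital controls. The groups did not overlap, and the log2 difference of -0.99 ± 0.54 did not pass (SE, n = 7 and 3, limma, adjusted p = 0.264). In a fit of only these 10 arrays Marco passed at the same difference (limma, adjusted p = 0.00939), as did Cd5l (0.0273) and Timd4 (0.0359). The Ha-ras tumours had 4.98, 5.34 and 7.20, against 6.51, 5.84 and 9.11 in the untreated controls. Untreated control 3 stood far above the other 15 arrays, and Ha-ras tumour 3 was the second highest. The second Marco probe set gave 6.52 in untreated control 3 and 5.50 in Ha-ras tumour 3, and at most 4.60 on the other arrays. The log2 difference in the Ha-ras tumours was -1.31 ± 0.64 (SE, n = 3 and 3, limma, adjusted p = 0.212).

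C1qa and C1qb encode chains of C1q, the recognition molecule of the classical complement pathway, which macrophages supply. C1qa was at 9.78 at the lowest, 10.19 at the median and 10.64 at the highest in the Ctnnb1 tumours, against 10.43, 10.09 and 9.57 in the phenobarbital controls. C1qb was at 9.02, 9.64 and 10.46 in the same order, against 9.87, 9.80 and 9.98 in the phenobarbital controls. The C1qa levels of 6 tumours were within the range of the controls and that of tumour 7 above it, whereas C1qb had tumours on both sides of the controls. The log2 differences were 0.16 ± 0.35 for C1qa (95% interval -0.58 to 0.91) and -0.20 ± 0.34 for C1qb (95% interval -0.93 to 0.52). Both directions were unsettled: C1qa was at -0.07 without phenobarbital control 6, and C1qb was at 0.41 by another of its probe sets, which read 8.35 in phenobarbital control 6 where the probe set used read 9.98.

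In Ha-ras tumours 1, 2 and 3, C1qa was at 8.83, 8.02 and 10.37, against 10.01, 9.54 and 10.16 in the untreated controls. C1qb was at 8.71, 7.94 and 9.95, against 9.15, 8.91 and 9.78 in those controls. Ha-ras tumours 1 and 2 were below all controls for both genes, and tumour 3 was above all of them. The log2 differences were -0.83 ± 0.42 for C1qa and -0.41 ± 0.40 for C1qb (SE, n = 3 and 3, limma, adjusted p = 0.225 and 0.584). Without tumour 3, C1qa was at -1.48 and passed (adjusted p = 0.00362).

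Csf1r encodes the receptor for CSF1 and IL-34, on which macrophage survival depends. It was at 10.04 at the lowest, 10.47 at the median and 11.16 at the highest in the Ctnnb1 tumours, against 11.46, 11.08 and 10.59 in the phenobarbital controls. Tumour 1 lay among the controls and the other tumours at about the lowest control or below it. The log2 difference was -0.53 ± 0.35 (SE, n = 7 and 3, limma, adjusted p = 0.358). The Ha-ras tumours had 9.34, 8.91 and 11.03, against 10.80, 10.31 and 10.99 in the untreated controls. As for the C1q chains, tumours 1 and 2 were below the controls and tumour 3 was not. Csf1r differed by -0.94 ± 0.41 log2 units (SE, n = 3 and 3, limma, adjusted p = 0.156), and without tumour 3 it was -1.58 and passed (adjusted p = 0.00237). The other Csf1r probe sets averaged 8.12 ± 0.26 and 7.27 ± 0.24 in the Ctnnb1 tumours, against 8.71 ± 0.36 and 7.42 ± 0.62 in the phenobarbital controls (SD, n = 7 and 3). They averaged 7.54 ± 0.91 and 7.02 ± 0.73 in the Ha-ras tumours, against 8.34 ± 0.39 and 7.43 ± 0.20 in the untreated controls (SD, n = 3 each).

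**Figure D3:**
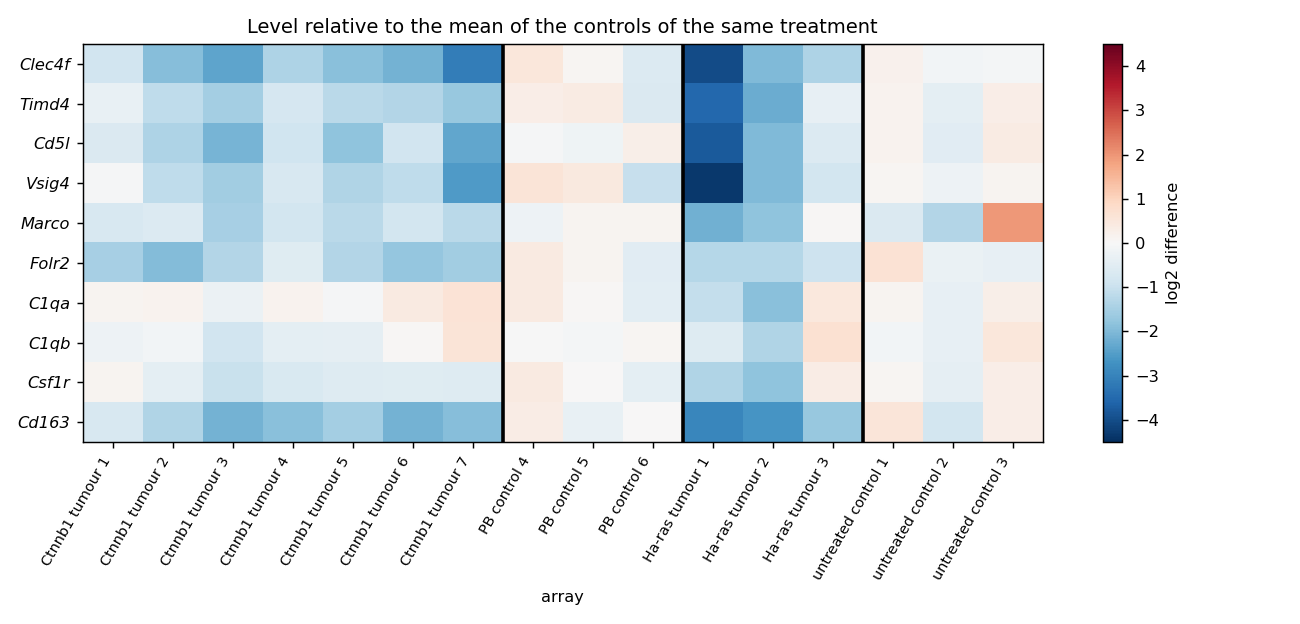
Level of each marker on each array (columns) minus the mean of the controls of the same treatment (colour, log2 difference; black lines separate the groups). Ha-ras tumour 1 carries the largest deficits, down to -4.35 for Vsig4, while in the Ctnnb1 tumours the C1qa row runs from -0.25 to 0.61 and the Csf1r row is below 0 in all but tumour 1.

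The tumours of a group differed from each other in depth and in pattern. Against the mean of their controls, Clec4f was lower by 0.86 to 3.12 log2 units over the Ctnnb1 tumours and by 4.02, 1.98 and 1.37 in Ha-ras tumours 1, 2 and 3. Counted per tumour, 6 to 9 of the 10 markers were below every phenobarbital control in each Ctnnb1 tumour. In Ha-ras tumours 1 and 2 all 10 markers were below every untreated control, and in tumour 3 it was 5. The share of all genes below every control was not computed for single tumours, so these counts are a description only. Ctnnb1 tumour 7 had the lowest Clec4f, Timd4, Cd5l and Vsig4 of its group and the highest C1qa and C1qb.

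Because of that contrast, the 7 markers other than C1qa, C1qb and Csf1r were averaged and set beside the mean of these 3 on each array, a split made with the values known and given without a test. Relative to the controls of the same treatment, the mean of the 7 was -2.06 to -0.69 over the Ctnnb1 tumours, where the mean of the 3 was -0.71 to 0.20. In Ha-ras tumours 1, 2 and 3 the mean of the 7 was -3.15, -1.99 and -0.82, and the mean of the 3 was -1.0, -1.67 and 0.49. Ha-ras tumour 2 thus had a deficit of similar size in both sets, and the other tumours had the larger deficit in the set of 7. The difference Clec4f minus C1qa on one array was -3.62 to -0.86 over the Ctnnb1 tumours, against 0.23, 0.13 and -0.03 in the phenobarbital controls. It was -3.15, -0.30 and -2.04 in the Ha-ras tumours, against -0.12, 0.05 and -0.53 in the untreated controls. This difference shows unequal change of 2 genes, not that either stayed the same.

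**Figure D4:**
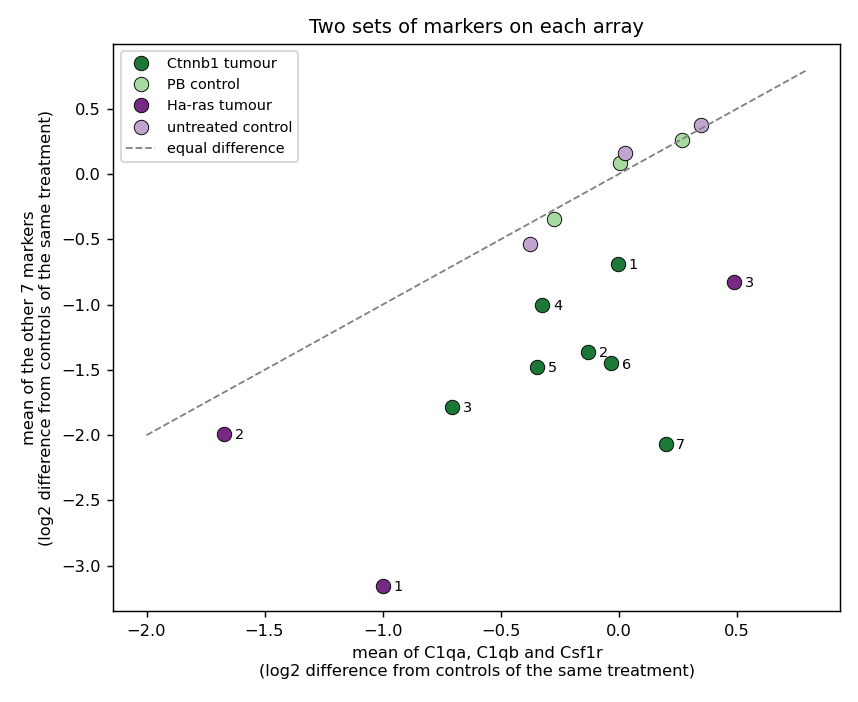
Mean of Clec4f, Timd4, Cd5l, Vsig4, Marco, Folr2 and Cd163 (y axis) against the mean of C1qa, C1qb and Csf1r (x axis) on each array, both as log2 differences from the controls of the same treatment; numbers are tumour numbers and the dashed line marks equal differences. All 10 tumours lie below the line, Ha-ras tumour 2 closest to it.

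Over the 16 arrays with group means removed, Clec4f varied with Vsig4 (Pearson r = 0.97, Spearman rho = 0.95) and with Timd4 (r = 0.89, rho = 0.87). Without the 2 arrays farthest from the Clec4f median these r were 0.94 and 0.84. C1qa varied with C1qb (r = 0.88, rho = 0.76) and with Csf1r (r = 0.88, rho = 0.77), with r of 0.70 and 0.66 without the 2 farthest arrays. Within the 7, r ran from -0.13 for Marco with Folr2 up to the 0.97 of Clec4f with Vsig4. Between the 7 and the 3, the 21 pairs had a median r of 0.42. They ran from -0.13 for Folr2 with C1qb up to 0.82 for Timd4 with Csf1r (rho = 0.77, and r = 0.73 without the 2 farthest arrays). Csf1r varied more closely with the 7 (median r = 0.63) than C1qa (0.42) or C1qb (0.35) did. Marco varied more closely with C1qb (r = 0.65, rho = 0.69) than with Clec4f (r = 0.37, rho = 0.35). The values within the 7 and between the sets thus overlapped. Clec4f against C1qb gave r of 0.00 and rho of -0.07, with r of 0.25 without the 2 farthest arrays. These are descriptions over arrays that share labelling and normalization, and the 3 Ha-ras tumours carry much of the spread.

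The direct test of the difference between both tumour changes, the Ctnnb1 change minus the Ha-ras change, called 0 of the 10 markers (limma, smallest adjusted p = 0.361, with 0 at an unadjusted p under 0.05), against 5.43% of all genes. The differences ran from -0.24 for Folr2 to 1.16 for Vsig4 with a median of 0.60, and 9 of the 10 were above 0. For C1qa it was 0.99 (95% interval -0.16 to 2.14), and without Ha-ras tumour 3 it was 1.64 and passed (adjusted p = 0.0169). The 95% intervals of the 10 differences reached from -1.46 to 3.14, so these arrays bounded the differences only loosely.

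Between the tumours themselves, 1 of the 10 markers was called: C1qa was higher in the Ctnnb1 tumours than in the Ha-ras tumours by 1.11 ± 0.35 log2 units (SE, n = 7 and 3, limma, adjusted p = 0.0422), against 15.1% of all genes called, 7.21% higher. Values of the 2 groups overlapped, and the call was lost without Ctnnb1 tumour 1, 2, 4, 5, 6 or 7 or without Ha-ras tumour 1 or 2. Without Ha-ras tumour 2 the difference was 0.59 (adjusted p = 0.316), and without Ha-ras tumour 3 it was 1.76 (adjusted p = 0.000296), with 5 markers then called. The median of the 10 markers was 0.80.

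In the phenobarbital controls against the untreated controls, 0 of the 10 markers passed the test. The smallest adjusted p was 0.242 (limma, 1 marker at an unadjusted p under 0.05), and 0.214% of all genes were called. The DEN dose and the age at dosing were not given for single samples, so these groups may differ in more than phenobarbital. The log2 differences ran from -0.99 for Marco to 0.92 for Folr2 with a median of 0.18. Folr2 averaged 7.27 ± 0.47 in the phenobarbital controls, against 6.35 ± 0.57 in the untreated controls (SD, n = 3 each), and the groups overlapped. C1qb was the only marker whose 3 phenobarbital controls all lay above the 3 untreated controls, which held for 9.4% of all genes. That was by the probe set used, and both of its other probe sets overlapped, one of them averaging 9.23 ± 0.80 in the phenobarbital controls, against 9.42 ± 0.30 in the untreated controls (SD, n = 3 each). The 95% intervals reached from -2.35 to 1.66, so this comparison bounds the differences between the control groups only loosely.

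Other genes of Kupffer cells and macrophages were measured from a list of 25, of which 24 had a probe set annotated with that symbol alone. In the Ctnnb1 tumours 1 rose and 2 fell, with a median log2 difference of 0.17. These 3 calls among 24 genes are near the share over all genes, which was 12%. In the Ha-ras tumours 2 of the 24 rose and 5 fell, with a median of -0.46, against 13.5% of all genes called. Both shares are also the background of the lists that follow. The 2 that fell in the Ctnnb1 tumours also fell in the Ha-ras tumours. Clec1b, the receptor CLEC-2, averaged 8.04 ± 0.30 in the Ctnnb1 tumours, against 9.15 ± 0.13 in the phenobarbital controls (SD, n = 7 and 3; log2 difference -1.10, limma, adjusted p = 0.0245). It averaged 7.42 ± 1.03 in the Ha-ras tumours, against 9.11 ± 0.18 in the untreated controls (SD, n = 3 each; -1.69, limma, adjusted p = 0.0038). The Ctnnb1 call of Clec1b was lost without phenobarbital control 4 or 6 (adjusted p = 0.0736 and 0.0866). Msr1, a class A scavenger receptor, was at -0.96 in the Ctnnb1 tumours and -1.12 in the Ha-ras tumours (limma, adjusted p = 0.0367 and 0.0357), but the first call was lost without Ctnnb1 tumour 2, 3, 5 or 7 or any 1 phenobarbital control and the second without Ha-ras tumour 1 or any 1 untreated control (adjusted p up to 0.0965 and 0.136).

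Slc11a1, a metal transporter of phagosomes, rose in the Ctnnb1 tumours to 8.18 ± 0.50, against 6.88 ± 0.45 in the phenobarbital controls (SD, n = 7 and 3; 1.30, limma, adjusted p = 0.00679), with an adjusted p of 0.0522 without control 6. In the Ha-ras tumours Cd14, the co-receptor for lipopolysaccharide, rose to 10.60 ± 0.20, against 7.49 ± 0.69 in the untreated controls (SD, n = 3 each; 3.11, limma, adjusted p = 0.000137). Mpeg1, a pore-forming protein of phagocytes, rose to 12.46 ± 0.06 in the Ha-ras tumours, against 11.00 ± 0.56 in the untreated controls (SD, n = 3 each; 1.46, limma, adjusted p = 0.00291). Both of these moved against the markers and held without any single array.

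Hpgd, which degrades prostaglandins, fell in the Ha-ras tumours to 9.18 ± 0.49, against 10.68 ± 0.29 in the untreated controls (SD, n = 3 each; -1.50, limma, adjusted p = 0.000419). Fcna, ficolin A of the lectin pathway of complement, fell by 1.94 (limma, adjusted p = 0.0213) and lost its call without Ha-ras tumour 1 or any 1 untreated control (adjusted p up to 0.0819). Slc40a1, the iron exporter ferroportin, fell by 0.79 (limma, adjusted p = 0.0455) and lost its call without Ha-ras tumour 1 or 2 or any 1 untreated control (adjusted p up to 0.202).

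Adgre1, C1qc and Cd68, also measured on this list, did not pass in either tumour type. Adgre1, which encodes the F4/80 antigen, averaged 7.64 ± 0.16 in the Ctnnb1 tumours, against 7.72 ± 0.44 in the phenobarbital controls (SD, n = 7 and 3; -0.08, limma, adjusted p = 0.909). It averaged 7.03 ± 1.03 in the Ha-ras tumours, against 7.93 ± 0.41 in the untreated controls (SD, n = 3 each; -0.91, limma, adjusted p = 0.122), and passed without Ha-ras tumour 3 (-1.48, adjusted p = 0.00147). C1qc, the remaining C1q chain, was at -0.22 in the Ctnnb1 tumours and -0.80 in the Ha-ras tumours (limma, adjusted p = 0.703 and 0.183), and the Ha-ras difference passed without Ha-ras tumour 3 (-1.39, adjusted p = 0.0015). Cd68, a lysosomal protein of macrophages, was at 0.83 and -0.43 (limma, adjusted p = 0.141 and 0.584). Between the tumour types Cd68 was higher in the Ctnnb1 tumours, at 8.88 ± 0.42, than in the Ha-ras tumours, at 7.03 ± 1.09 (SD, n = 7 and 3). The log2 difference was 1.85 (limma, adjusted p = 0.00169). Values of the groups overlapped, and the call held without any single array.

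Among ligands, lineage factors and signalling partners of the CSF1 receptor, 8 of 10 listed genes were measured. In the Ctnnb1 tumours 1 rose and 0 fell, and in the Ha-ras tumours 0 were called (limma, 1 at an unadjusted p under 0.05, medians -0.05 and -0.15). A single call among 8 genes is near the 12% of all genes called in the Ctnnb1 comparison. The one that rose was Csf1, the main ligand, at 7.22 ± 0.20 in the Ctnnb1 tumours, against 6.64 ± 0.08 in the phenobarbital controls (SD, n = 7 and 3; 0.58, limma, adjusted p = 0.0366). This call was lost without Ctnnb1 tumour 1, 2, 4 or 7 or any 1 phenobarbital control (adjusted p up to 0.103) and with the mean of all Csf1 probe sets (0.20, adjusted p = 0.32). In the Ha-ras tumours Csf1 was at 6.53 ± 0.43, against 7.06 ± 0.32 in the untreated controls (SD, n = 3 each; -0.54, limma, adjusted p = 0.0971), and passed without untreated control 2 or Ha-ras tumour 3 (adjusted p = 0.0392 and 0.0171). Il34, the other ligand, was at -0.22 in the Ctnnb1 tumours and -0.24 in the Ha-ras tumours (limma, adjusted p = 0.199 and 0.251). Spi1 was at -0.09 and -0.19, and Tyrobp, the adaptor DAP12, at 0.42 and -0.41 (limma, adjusted p = 0.768, 0.575, 0.561 and 0.661).

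Of the classical complement genes, 7 of 11 listed had a probe set annotated with that symbol alone. In the Ctnnb1 tumours 2 of them rose, Cd93 by 1.14 and C4bp by 0.90 log2 units (limma, adjusted p = 0.00552 and 0.00678), and in the Ha-ras tumours 1 rose and 1 fell, Cd93 by 1.55 being the riser (limma, adjusted p = 0.00128). The call of C4bp was lost with the Gapdh gap as a covariate (0.38, adjusted p = 0.103). Cd93 was named for binding C1q and is an endothelial and myeloid surface protein, and C4bp is a hepatocyte inhibitor of the pathway. Of the receptors for C3 fragments, 6 of 7 were measured and 0 passed in either tumour type (limma, 1 and 1 at an unadjusted p under 0.05). For haem and iron, beside Cd163, 8 of 9 were measured: 3 rose in the Ctnnb1 tumours, and 1 rose and 1 fell in the Ha-ras tumours. Blvrb, a biliverdin and flavin reductase, rose to 12.51 ± 0.36 in the Ctnnb1 tumours, against 10.65 ± 0.34 in the phenobarbital controls (SD, n = 7 and 3; 1.86, limma, adjusted p = 0.000202).

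All 15 listed scavenger and clearance receptors were measured. In the Ctnnb1 tumours 1 rose and 4 fell (median -0.51), and in the Ha-ras tumours 0 rose and 4 fell (median -0.30). Scara5, a ferritin receptor, rose in the Ctnnb1 tumours to 9.26 ± 0.61, against 7.61 ± 0.36 in the phenobarbital controls (SD, n = 7 and 3; 1.65, limma, adjusted p = 0.00439), and fell in the Ha-ras tumours to 7.34 ± 0.65, against 8.75 ± 0.20 in the untreated controls (SD, n = 3 each; -1.41, limma, adjusted p = 0.0233). The Ha-ras call was lost without Ha-ras tumour 1 or 2 or untreated control 1 or 3 (adjusted p up to 0.113). Stab1, of sinusoidal endothelium and macrophages, fell by 0.84 in the Ctnnb1 tumours (limma, adjusted p = 0.0131), but not without phenobarbital control 6 (adjusted p = 0.0911). Scara3 fell by 1.81 in the Ctnnb1 tumours (limma, adjusted p = 0.0131), but not without phenobarbital control 4 (adjusted p = 0.0785). Lrp1, an endocytic receptor that hepatocytes also express, fell by 0.77 in the Ha-ras tumours (limma, adjusted p = 0.017) and lost its call without Ha-ras tumour 1 or 2 or untreated control 1 or 3 (adjusted p up to 0.0784).

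Monocyte and inflammatory macrophage genes were measured for 15 of 17 listed, and 1 rose in the Ctnnb1 tumours and 0 passed in the Ha-ras tumours (limma, medians 0.22 and 0.04, with 3 and 0 at an unadjusted p under 0.05). This was below the 12% and 13.5% of all genes called. The one that rose, Cx3cr1, a chemokine receptor of patrolling monocytes, was at 0.45 (limma, adjusted p = 0.045) and lost its call without Ctnnb1 tumour 1, 2, 3 or 6 or any 1 phenobarbital control (adjusted p up to 0.175). Of the 9 listed genes of lipid-associated macrophages 7 were measured, and 3 rose and 0 fell in each tumour type, with medians of 0.96 in the Ctnnb1 tumours and 0.60 in the Ha-ras tumours. Lgals3, galectin-3, rose to 11.06 ± 0.84 in the Ctnnb1 tumours, against 8.83 ± 0.40 in the phenobarbital controls (SD, n = 7 and 3; 2.23, limma, adjusted p = 0.00923). Lpl, lipoprotein lipase, rose by 1.33 in the Ctnnb1 tumours and 1.86 in the Ha-ras tumours (limma, adjusted p = 0.0155 and 0.00382), the first call being lost without phenobarbital control 4 or 5 (adjusted p = 0.0537 and 0.0711). Cd9, a tetraspanin, rose by 1.24 and 1.17 (limma, adjusted p = 0.00528 and 0.0158), the first call being lost with the Gapdh gap as a covariate (0.63, adjusted p = 0.118) and the second without untreated control 1 or Ha-ras tumour 1 or 2 (adjusted p up to 0.0703). Fabp5, a fatty acid binding protein, rose by 1.52 in the Ha-ras tumours (limma, adjusted p = 0.0157) and lost its call without untreated control 3 or Ha-ras tumour 2 (adjusted p = 0.0757 and 0.0506). Trem2, Gpnmb and Atp6v0d2, the other measured genes of this list, passed in neither tumour type. The smallest log2 differences on the list were 0.15 in the Ctnnb1 tumours and 0.05 in the Ha-ras tumours. Hepatocytes and tumour cells can also express Lgals3, Lpl, Cd9 and Fabp5.

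**Figure D5:**
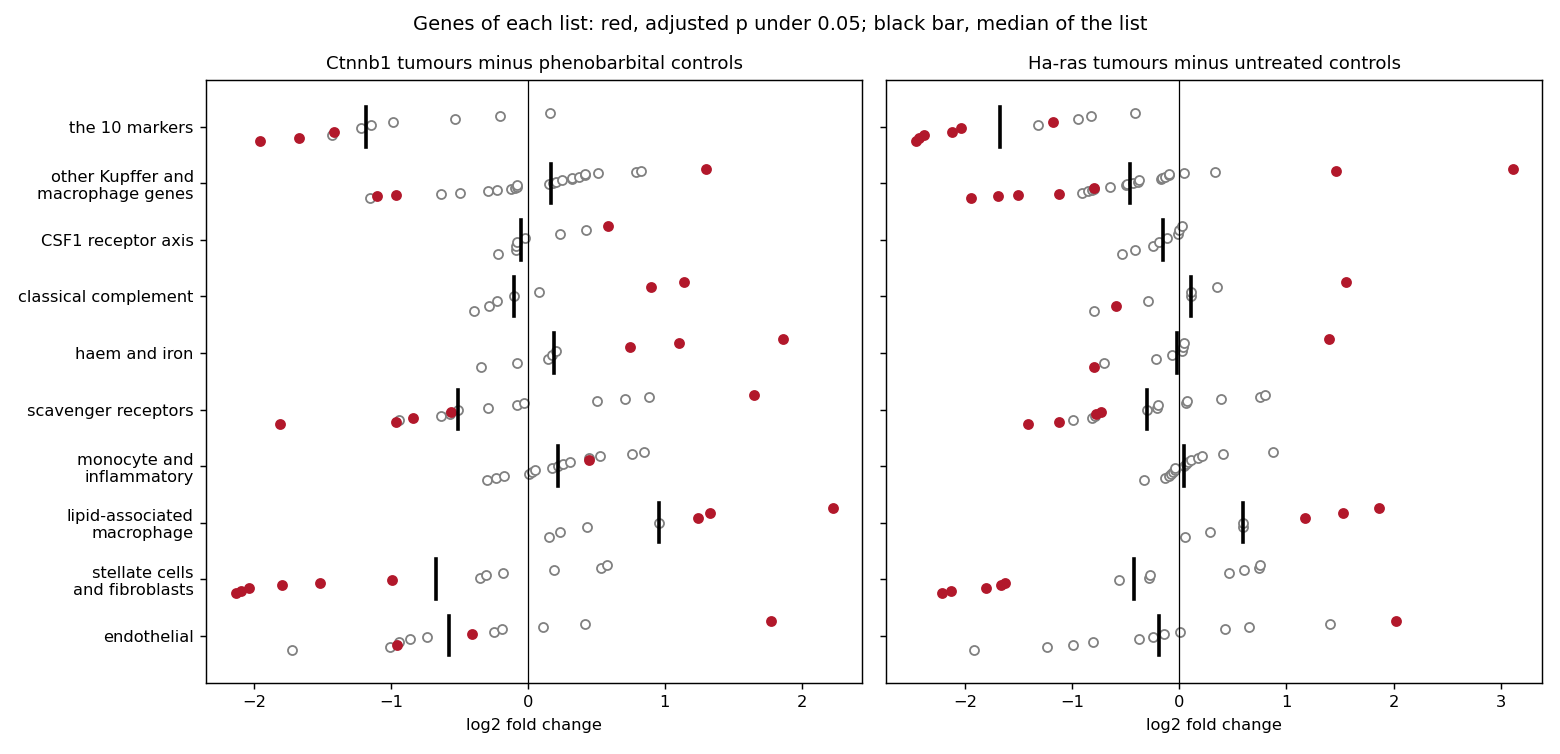
Log2 fold change (x axis) of every measured gene of each list (rows), for the Ctnnb1 tumours minus phenobarbital controls (left) and the Ha-ras tumours minus untreated controls (right); red points passed an adjusted p of 0.05 and black bars are medians. The marker row is shifted to the left in both panels, with medians of -1.18 and -1.68, while other Kupffer and macrophage genes lie on both sides of 0.

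Among markers of other non-parenchymal cells, those of stellate cells and fibroblasts also differed between tumours and controls. The part of other cell types in the marker values was not tested. Over all genes, 5.97% were called lower in the Ctnnb1 comparison and 6.33% in the Ha-ras comparison. The Ctnnb1 tumours had 6 called lower and 0 called higher among 12 genes of stellate cells and fibroblasts, and the Ha-ras tumours 5 lower and 0 higher. Their mean level was 7.42 to 8.19 in the Ctnnb1 tumours, against 8.34 to 8.74 in the phenobarbital controls, and 7.54 to 8.19 in the Ha-ras tumours, against 8.49 to 8.50 in the untreated controls. Lrat, which stores vitamin A in stellate cells, fell by 2.13 in each tumour type (limma, adjusted p = 0.000529 in Ctnnb1 and 0.000947 in Ha-ras tumours). Dcn, decorin, fell by 2.04 and 2.21 (limma, adjusted p = 0.0024 and 0.00253).

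Of 12 endothelial genes, 1 rose and 2 fell in the Ctnnb1 tumours, with a mean level of 6.98 to 8.09, against 7.77 to 8.34 in the phenobarbital controls. In the Ha-ras tumours 1 rose and 0 fell, with a mean level of 7.66 to 8.47, against 8.08 to 8.23 in the untreated controls. The riser was Emcn, endomucin, in both, by 1.77 and 2.02 (limma, adjusted p = 0.00225 and 0.0016), and its Ctnnb1 call was lost with the Gapdh gap as a covariate (1.13, adjusted p = 0.0585). Genes of B cells (5 of 6 measured), T and NK cells (9 of 11) and neutrophils (6 of 8) had 0 called in either tumour type (limma; at an unadjusted p under 0.05, 2, 0 and 0 in the Ctnnb1 tumours and 0, 0 and 0 in the Ha-ras tumours). Of 5 bile duct genes, 1 fell in the Ctnnb1 tumours and 1 rose in the Ha-ras tumours. Of 6 dendritic cell genes 1 fell in the Ctnnb1 tumours, and of 3 red cell genes 1 fell in the Ha-ras tumours. Of 6 hepatocyte genes 1 rose in the Ha-ras tumours. Over all genes, 12% were called in the Ctnnb1 comparison and 13.5% in the Ha-ras comparison, so single calls on lists this short say little about a cell type.

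The genes whose levels over the 16 arrays were most like the mean of the 10 standardised markers were Wfdc17 (Pearson r = 0.95, Spearman rho = 0.91), Clec1b (0.95, 0.98), Nod1 (0.94, 0.84), Naip5 (0.91, 0.84), Ada (0.91, 0.85) and Itgal (0.90, 0.88). Since groups differ in the markers, these values partly restate the group differences. With group means removed, the closest were Itga9 (Pearson r = 0.94, Spearman rho = 0.89), Cfp (0.93, 0.86), Wfdc17 (0.92, 0.89), Gsdmd (0.92, 0.88), Pilrb1 (0.89, 0.81) and Nod1 (0.88, 0.80). Without the 2 arrays farthest from the median of the marker mean, these 6 had r of 0.71 to 0.88. Wfdc17 fell in the Ha-ras tumours by 1.50 (limma, adjusted p = 0.0379), and Itga9, an integrin subunit, fell in the Ctnnb1 tumours by 0.92 (limma, adjusted p = 0.0072). Gsdmd, gasdermin D, was at 0.07 in the Ctnnb1 tumours and -0.06 in the Ha-ras tumours (limma, adjusted p = 0.828 and 0.891), so likeness within groups did not go with a group difference there.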

How the data were processed

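RNA was measured on 16 Affymetrix arrays of the 45101 probe set mouse design. The deposited values are log2 intensities after RMA (background correction, quantile normalization and probe summary) that the authors made in R 2.14.1, per the submitters' processing notes. They were used without rescaling, and no detection calls were applied. Probe sets were named from the platform annotation: 34945 had 1 gene symbol, which gave 18193 genes by the probe set with the highest mean. One limma 3.58.1 model (R 4.3.3, lmFit and eBayes) with 4 group coefficients over all arrays gave 5 comparisons, and p-values were adjusted over all genes with the Benjamini-Hochberg method. The scripts were tested on simulated data. Named were all 10 markers, up to 4 called genes per other list and up to 2 against its trend, 7 stated macrophage genes, and 6 genes per likeness measure. The markers and the 17 other lists were chosen with earlier results of these data known. The number of arrays limits the precision. Alternatives covered probe sets, normalization, weights, filters, blocks and each array left out.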

Additional observations from a re-analysis of the deposited data

Results flagged for a closer look

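Of 147 measured genes on the other lists, 9 differed between the tumour types by the test of the difference itself, the Ctnnb1 change minus the Ha-ras change, with 6 above 0 and 3 below, against 5.43% of all genes called. This count is near that share and says little about these lists as a whole. The changes of Hpgd, Scara5, Blvrb and Cldn7 differed by 1.92, 3.07, 2.56 and -2.50 log2 units (limma, adjusted p = 0.00128, 0.00177, 0.00053 and 0.00247), and these calls held without any single array. Cldn7, a tight junction protein of bile ducts, was at -0.72 in the Ctnnb1 tumours and rose by 1.78 in the Ha-ras tumours (limma, adjusted p = 0.106 and 0.00168).

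The other 5 depended on single arrays. For Cd14 the difference was -2.32 (limma, adjusted p = 0.0225), and the call was lost without phenobarbital control 4, untreated control 1 or 2 or Ha-ras tumour 2 (adjusted p from 0.0605 to 0.0753). For Csf1 it was 1.12 (limma, adjusted p = 0.0205), and the call was lost without untreated control 1 or 3 or Ha-ras tumour 1 or 2 (adjusted p from 0.0503 to 0.063) and with the mean of all Csf1 probe sets (0.46, adjusted p = 0.2). Alas2, the first enzyme of haem synthesis in red cells, differed by 2.01 (limma, adjusted p = 0.0252), lost without phenobarbital control 5 or 6, untreated control 1 or 2 or Ha-ras tumour 1 (adjusted p up to 0.077). For Mertk, a receptor for clearing dying cells, it was 1.67 (limma, adjusted p = 0.0379), lost without Ctnnb1 tumour 1, 2, 3, 4 or 5, phenobarbital control 4, untreated control 1 or 3 or Ha-ras tumour 1 or 2 (adjusted p up to 0.109). For Sox9, a bile duct transcription factor, it was -0.87 (limma, adjusted p = 0.0403), lost without Ctnnb1 tumour 3, 4, 5 or 6, phenobarbital control 4, untreated control 1 or 2 or Ha-ras tumour 1 or 2 (adjusted p up to 0.119). Mutation and phenobarbital cannot be told apart in these differences.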

How the results depend on the processing

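In the Ctnnb1 tumours 3 markers were called, with 2 to 3 when 1 array was left out, 6 with only the arrays compared (Timd4, Cd5l and Marco added), 1 with dim genes left out (which drops Timd4, Marco, Folr2 and Cd163) and 1 with the Gapdh gap as a covariate. Clec4f (-2.23, adjusted p = 0.0621) and Cd163 (-1.56, 0.0631) were the marker calls lost with that covariate, and C4bp, Cd9, Clec1b, Csf1, Cx3cr1, Emcn, Msr1, Slc11a1 and Stab1 lost theirs too (adjusted p from 0.0585 to 0.226). The Ha-ras comparison called 6, with 2 to 8 when 1 array was left out, 3 with only the arrays compared and 3 with dim genes left out. Vsig4 was at an adjusted p of 0.0505 with a trended robust eBayes, and C1qa and Csf1r passed with array weights (0.0302 and 0.0191). The difference between the tumour changes called 0 markers, with 0 to 1 when 1 array was left out. Phenobarbital against untreated controls called 0 under every alternative run. Between the tumour types 1 was called, with 0 to 5 when 1 array was left out, 6 with array weights and 0 with only the arrays compared, with every probe set tested, with a trended robust eBayes, and in a fit that omitted 3 arrays at once (Ctnnb1 tumours 6 and 7, phenobarbital control 6). The cause was not tested.

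Directions changed for the following differences. For C1qa in the Ctnnb1 tumours the value was -0.085 with array weights, -0.12 with the Gapdh covariate, -0.21 with the 3 arrays left out together, and -0.070 to 0.36 with 1 left out. C1qb there was at 0.41 by another probe set. Tyrobp in the Ctnnb1 tumours was at -0.079, -0.30 and -0.33 under the same 3 alternatives as C1qa and at -0.14 to 0.79 with 1 array left out, and Adgre1 was at -0.33 to 0.081. Leaving out 1 array in the Ha-ras comparison gave -0.96 to 0.051 for C1qb, -1.02 to 0.053 for Cd68, -0.34 to 0.017 for Spi1 and -0.97 to 0.058 for Tyrobp. The difference between the tumour changes for Clec4f ran from -0.28 to 1.04.

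Over all genes, the Ctnnb1 comparison called 2192, but 836 with the Gapdh covariate, 1383 with the 3 arrays left out, 1337 without phenobarbital control 6 and 596 with a 2-fold minimum. The Ha-ras comparison called 2462, but 3775 with array weights and 1086 with a 2-fold minimum. The difference between the changes called 988, but 1547 with array weights and 648 without untreated control 1. Phenobarbital against untreated controls called 39, but 19 with only the arrays compared, 242 with array weights, 4 with the covariate, 21 with the 3 arrays left out and 3 to 68 with 1 left out. The tumour types differed in 2750, but in 1745 without Ha-ras tumour 1 and 898 with a 2-fold minimum. The counts called on 9 of the other gene lists moved by over 1.5 times in 48 of 207 list and alternative combinations in the Ctnnb1 comparison and in 47 of 171 in the Ha-ras comparison.

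Tumours and controls share some numbers in the labels. The labels name no shared animal, so the numbers were not taken as pairs. Deviations of same-numbered samples from their group means correlated at 0.13, 0.09 and -0.12 for numbers 4, 5 and 6. For 1, 2 and 3 they correlated at 0.03, 0.40 and 0.24. These values do not settle whether the samples were paired, as no reference value was computed. A fixed replicate block was fitted on only the arrays compared. In the Ctnnb1 comparison only numbers 4, 5 and 6 occur in both groups. Tumours with other numbers were alone in their block and added nothing to the difference. With this block, 3 markers were called in the Ctnnb1 tumours, against 6 without it, and 7 in the Ha-ras tumours, against 3 without it, Marco among the 7 (limma, adjusted p = 0.0172). Over all genes 255 were called in the Ctnnb1 comparison, against 1492 without the block, and 2895 in the Ha-ras comparison, against 2671. Adgre1 in the Ctnnb1 tumours was at 0.0085 with the block, and 11 other named genes lost their Ctnnb1 calls (adjusted p from 0.0518 to 0.297). With the number as a random replicate block (correlation 0.0465) the marker counts were 3, 6, 0, 0 and 1, as without it. The number of arrays and, for the 4 dim markers, the signal over background limit what can be told.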
